A study of Mus musculus with 6 samples.

Results

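The 30 genes described here make, move, store and export cholesterol. They were taken by symbol from a list of sterol enzymes, regulators and transporters, and each had a row among the 31017 genes of the deposited table. The list holds 19 synthesis enzymes, 4 regulators of sterol sensing, 3 carriers of sterol inside the cell, and 4 genes of storage, export and the liver X receptor (LXR). Other genes of the pathway were not analysed as members. Of the 30 genes 29 passed the filter on low counts and were tested, and Abca1 did not.

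The RNA was from 4T1, a line of mouse mammary carcinoma cells, grown as 3D cultures in collagen I in medium with serum. Control cells had been nucleofected with Cas9 and control guide RNAs, and ETV4 KO cells with Cas9 and guides against Etv4, a transcription factor gene of the ETS family. Each group had 3 libraries. The ETV4 KO libraries carry 1 common code, c39; the labels do not say whether this is 1 clone or whether the libraries of a group came from different cultures, so p-values measure the spread between these libraries, which may be technical.

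Total counts ran from 22355015 to 29042569 per library. Etv4 mRNA was at 134, 135 and 133 CPM (counts scaled to library size with TMM factors) in the controls and at 87.4, 89.5 and 92.3 CPM in ETV4 KO, a log2 fold change of -0.58 (SE 0.036; adjusted p = 1.03e-14 by edgeR). The expressed genes in its 10 Mb bin of chromosome 11 had a median of -0.46, and a count of the whole gene says nothing on whether its reading frame was broken. Both groups had high epithelial keratin mRNA, with Krt8 at 1964.4 to 2043.1 CPM in controls and 1413.9 to 1464.5 CPM in ETV4 KO. The summed level of 7 epithelial markers, all with counts although Krt5 was near 0, was 4704.1 to 4843.6 CPM in controls and 3324.5 to 3470.1 CPM in ETV4 KO. The summed immune markers were at 9.45 to 9.99 and 9.41 to 11.3 CPM, nearly all of it Cd68, with Adgre1 and Cd3e at 0. The fibroblast markers summed to 9.66 to 11.4 and 12.6 to 14.4 CPM, all but a trace from Pdgfra, with Lum at 0, and the endothelial, hepatocyte and adipocyte sums were at most 0.314 CPM in any library. The part of these marker shifts in the results below was not tested, and in bulk RNA fewer cells of a type and less RNA per cell cannot be told apart.

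Cells build cholesterol from acetyl-CoA through mevalonate, farnesyl diphosphate, squalene and lanosterol. The transcription factor SREBP-2, encoded by Srebf2, drives most enzyme genes of the route when membrane sterol is low: Scap carries it from the endoplasmic reticulum to the Golgi for cleavage, and the Insig proteins hold Scap back when sterol is high. Surplus cholesterol is esterified by Soat1 or exported by the ABC transporters, whose genes respond to LXR.

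The mRNA of synthesis enzymes was lower at scattered steps in ETV4 KO and stayed close to the control level at others. Outside synthesis Soat1, Npc1 and Abcg1 were higher. Of the 19 synthesis enzymes 12 fell (63.2%, against 36.0% of all tested genes), 4 rose (21.1%, against 35.0%) and 3 were not called. Their median log2 fold change was -0.11, and 10 of them lay within 0.2 of 0. Called falls of at least 0.5 in size were 3 of the 19, against 1740 of all 12076 tested genes. The enzymes that fell furthest were Tm7sf2 at -1.05, Pmvk at -0.90 and Lss at -0.56, while Ebp rose by 1.06. Outside synthesis, Soat1 rose 2.50-fold, Npc1 rose 1.62-fold, and Abcg1 went from 4 counts over the control libraries to 131 counts over the ETV4 KO libraries. Srebf2 fell to 91.0% of the control mean and Insig1 was at 99.8% of it.

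These counts stand against a large difference between the groups over the whole table. Of all 12076 tested genes 71.1% were called at an adjusted p under 0.05, 35.0% higher and 36.0% lower. Of the 29 tested members 10 were called higher (34.5%) and 15 lower (51.7%). The share called higher was thus near that of all genes, and the share called lower was above it. With library size in place of TMM scaling the split was 6 higher and 15 lower, against 3670 and 4914 of all tested genes. The libraries of the 2 groups did not overlap in 24 members (82.8%), against 72.7% of all tested genes. Members with a call and a log2 fold change of at least 0.5 in size were 7 (24.1%), against 25.9%. By direction 4 of the 29 were higher and 3 lower, against 1384 and 1740 of all 12076 tested genes. The larger share called lower was thus made up mostly of smaller changes. The median log2 fold change was -0.07 for the members and 0.00 for all tested genes, and the median size was 0.15 against 0.29. Of the 29 members 15 lay within 0.2 of 0.

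**Figure D1:**
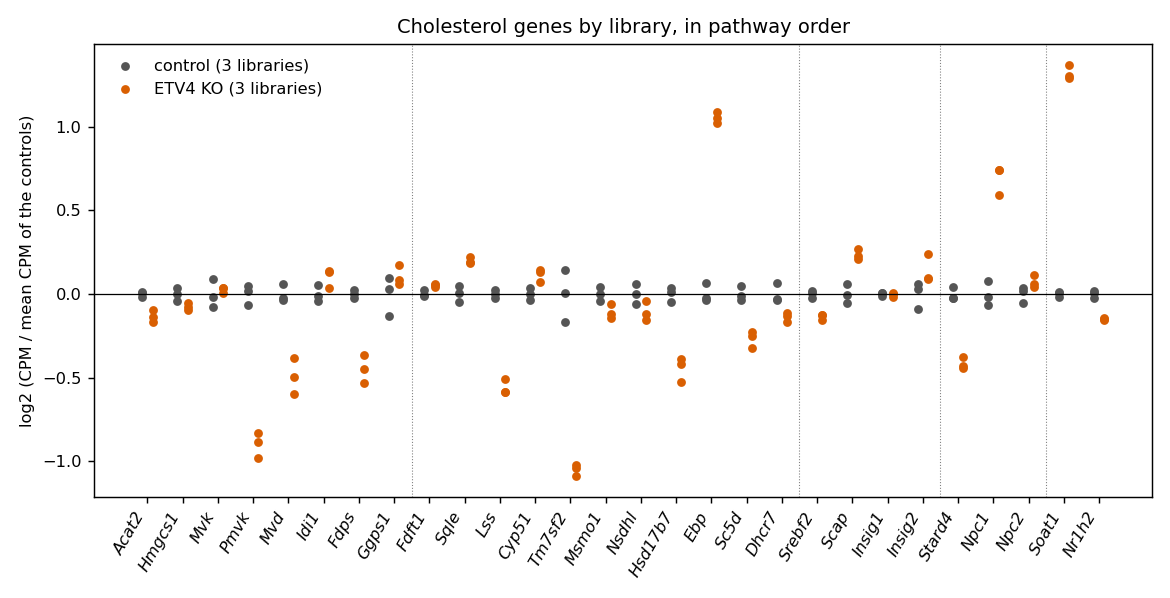
Each point is 1 library, plotted as log2 of its CPM over the mean CPM of the 3 controls (grey, control; orange, ETV4 KO), for 28 genes in pathway order, with dotted lines between the groups of genes; Abca1 and Abcg1 are left out because control values of 0 have no log2. Pmvk, Lss and Tm7sf2 in ETV4 KO lie well below the controls, Ebp, Npc1 and Soat1 well above, and Insig1 overlaps them.

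Promoter stretches are shown because SREBP-2 acts on the promoters of many synthesis genes together with NF-Y and Sp1; other members, such as the ABC transporter genes, are known for other control. RefSeq (GRCm38.p6) gave 250 bases before the start for 24 of the 30 members. No promoter was at hand for Fdps, Fdft1, Sqle, Stard4, Npc1 and Abcg1. These were searched on both strands for 5 motifs. The NF-Y motif CCAAT was found in 20 of the 24 members (83.3%), against 40.8% of the 9293 tested genes with a promoter in the table. The Sp1 motif GGGCGG was also found in 20 (83.3%, against 65.3%), and AGGAAG, a form bound by ETS factors of the Etv4 type, in 6 (25.0%, against 31.4%). A gene with more than 1 start counted once if any of its promoters held the motif. A match is a run of letters and not a shown binding site.

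The sterol regulatory element was searched in the forms TCACNCCAC and CACCCCAC, which overlap each other. Other forms were not searched, so a promoter without a match was not shown to lack the element. At least 1 form was found in 2 members (8.3%, against 3.83% of tested genes), Hmgcs1 and Acat2, where it is in capitals. Both fell by under 0.2 on the log2 scale. The stretches lie at chr13:119690189-119690247 (plus strand) and chr17:12960874-12960931 (minus strand).
Hmgcs1: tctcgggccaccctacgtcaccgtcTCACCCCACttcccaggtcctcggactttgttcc
Acat2: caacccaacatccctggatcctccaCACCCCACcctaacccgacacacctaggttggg

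The CCAAT motif, in capitals as CCAAT or as its reverse complement ATTGG, was in promoters of members that rose, fell or stayed level. It is shown for Lss (chr10:76531518-76531572, plus strand) and Tm7sf2 (chr19:6067868-6067922, minus strand), which fell, for Ebp (chrX:8193538-8193592, minus strand) and Soat1 (chr1:156474329-156474383, minus strand), which rose, and for Insig1 (chr5:28071171-28071225, plus strand), which was not called. The first base of the motif lay 62, 47, 55, 30 and 216 bases before the start, in that order.
Lss: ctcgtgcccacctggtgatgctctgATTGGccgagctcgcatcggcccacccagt
Tm7sf2: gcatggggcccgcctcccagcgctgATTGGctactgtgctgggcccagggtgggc
Ebp: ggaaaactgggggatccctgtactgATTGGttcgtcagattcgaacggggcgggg
Soat1: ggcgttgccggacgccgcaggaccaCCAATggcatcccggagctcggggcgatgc
Insig1: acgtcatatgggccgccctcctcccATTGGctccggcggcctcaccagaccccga

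The 6 promoters with the ETS form AGGAAG were those of Acat2, Pmvk, Tm7sf2, Dhcr7, Scap and Soat1. It is shown, in capitals as AGGAAG or its reverse complement CTTCCT, for the 3 of them with a log2 fold change of at least 0.5 in size. These are Pmvk (chr3:89459464-89459519, plus strand), Tm7sf2 (chr19:6067960-6068015, minus strand) and Soat1 (chr1:156474471-156474526, minus strand). Of these genes Pmvk and Tm7sf2 fell and Soat1 rose, so the motif was found with both directions. The Pmvk motif lay 82 bases before a start inside the gene (89454541 to 89469013). It was not found before the gene's outer start.
Pmvk: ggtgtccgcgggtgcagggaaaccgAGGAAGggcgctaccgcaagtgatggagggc
Tm7sf2: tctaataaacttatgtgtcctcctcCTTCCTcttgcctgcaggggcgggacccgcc
Soat1: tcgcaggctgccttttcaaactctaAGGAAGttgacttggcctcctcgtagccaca

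The first enzymes of the route changed little. Acat2, the cytosolic thiolase that joins acetyl-CoA units, was at 98.5, 96.7 and 98.8 CPM in controls and 87.4, 89.1 and 91.8 CPM in ETV4 KO (log2 fold change -0.13, SE 0.037). Hmgcs1, the HMG-CoA synthase, was at 289, 274 and 282 CPM in controls and 272, 263 and 267 CPM in ETV4 KO (-0.07, SE 0.032, edgeR adjusted p = 0.0402). The groups did not overlap for either gene, though the Hmgcs1 values lay within a few percent of each other. The Hmgcs1 call was lost without control replicate 1 (adjusted p = 0.169), control replicate 3 (0.0947), ETV4 KO replicate 2 (0.101) or ETV4 KO replicate 3 (0.115), and with DESeq2 (0.0597) or no low-count filter (0.102). Acat2 lies close to its near-identical copy Acat3, which had 21 to 35 counts per library, so reads of the pair can be split between them.

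The kinases and the decarboxylase of the mevalonate steps did not move together. Mvk, which phosphorylates mevalonate, was at 69.3 CPM ± 4.04 in controls and 70.6 CPM ± 0.805 in ETV4 KO (SD, n = 3 each), with overlapping groups and a log2 fold change of 0.03 (edgeR adjusted p = 0.593) that turned negative with upper-quartile factors or library size alone. Pmvk (chromosome 3, 89454541 to 89469013 in GRCm38), which adds the next phosphate, was at 55.4, 59.9 and 58.6 CPM in controls and 31.3, 32.5 and 29.4 CPM in ETV4 KO. Each ETV4 KO library was thus far below each control, a log2 fold change of -0.90 (SE 0.050; adjusted p = 7.24e-16 by edgeR). Mvd, which makes isopentenyl diphosphate, was at 75.1, 75.7 and 80.4 CPM in controls and 50.9, 59.0 and 54.6 CPM in ETV4 KO, a log2 fold change of -0.49 (SE 0.047; adjusted p = 1.63e-10 by edgeR).

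The isoprenoid steps that follow again split. Idi1, which isomerises isopentenyl diphosphate, was at 67.9, 63.5 and 64.9 CPM in controls and 71.9, 67.1 and 71.7 CPM in ETV4 KO. Its groups overlapped, and its log2 fold change of 0.10 (SE 0.043; adjusted p = 0.0316 by edgeR) was no longer called without control replicate 2 (adjusted p = 0.148), control replicate 3 (0.0871), ETV4 KO replicate 1 (0.108) or ETV4 KO replicate 3 (0.106), nor with upper-quartile factors (0.164), library size alone (0.282) or DESeq2 (0.0603). Fdps, the farnesyl diphosphate synthase, was at 33.1, 32.5 and 33.7 CPM in controls and at 22.9, 25.7 and 24.2 CPM in ETV4 KO. The groups stood apart, with a log2 fold change of -0.45 (SE 0.056; adjusted p = 3.07e-08 by edgeR). Fdps shares 1124 exon bases with Gm43738 on the same strand, which had a mean of 0.0242 CPM. Reads there can be assigned to either gene or dropped. Ggps1, which makes geranylgeranyl diphosphate for protein prenylation, overlapped between groups (13.6 to 16.0 CPM in controls, 15.6 to 16.8 CPM in ETV4 KO) and was not called, with a log2 fold change of 0.10 (edgeR adjusted p = 0.206).

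Squalene synthesis and oxidation were level or slightly higher. Fdft1, the squalene synthase, was at 201, 201 and 205 CPM in controls and 211, 208 and 210.1 CPM in ETV4 KO. The groups did not overlap, but the log2 fold change of 0.05 (SE 0.032) was not called (edgeR adjusted p = 0.143). Fdft1 shares 774 exon bases with Ctsb on the opposite strand, which had a log2 fold change of 0.87, and whether the counting used strand is not stated in the labels. Sqle, the squalene epoxidase and a rate-limiting step, rose from 277, 267 and 285 CPM to 316, 314 and 322 CPM, a log2 fold change of 0.20 (SE 0.033; adjusted p = 3.14e-06 by edgeR).

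Lss closes the epoxide into lanosterol, the first sterol. It fell from 174, 178 and 171 CPM in controls to 123, 116 and 116 CPM in ETV4 KO, a log2 fold change of -0.56 (SE 0.035; adjusted p = 1.32e-14 by edgeR). No ETV4 KO library came near a control. The enzymes on both sides of it moved the other way by a small amount, Sqle as given and Cyp51, the lanosterol demethylase, from 275 CPM ± 6.94 to 297 CPM ± 7.82 (SD, n = 3 each; log2 fold change 0.11, SE 0.033). The Cyp51 call was lost with library size alone, where its log2 fold change was 0.06.

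Tm7sf2 (chromosome 19, 6062821 to 6068373), a sterol C14 reductase, had the lowest log2 fold change of the 29 tested members. It was at 13.1, 11.9 and 10.5 CPM in controls and 5.55, 5.74 and 5.81 CPM in ETV4 KO, a log2 fold change of -1.05 (SE 0.098; adjusted p = 8.66e-11 by edgeR). The controls varied more than the ETV4 KO libraries and all stood above them. Tm7sf2 shares 532 exon bases with Vps51 on the same strand, whose log2 fold change was 0.58, so reads there can be assigned to either gene or dropped. Lbr, a nuclear envelope protein that carries out the same reduction and is no member, was not called (log2 fold change -0.01, SE 0.035, edgeR adjusted p = 0.894).

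The demethylation enzymes at the sterol C4 position fell by unequal amounts. Msmo1, the methyl oxidase, went from 286 CPM ± 7.92 to 265 CPM ± 7.60 (log2 fold change -0.11, SE 0.033), and its call was lost without control replicate 3 (edgeR adjusted p = 0.0550). Nsdhl, the decarboxylating dehydrogenase, went from 73.2 CPM ± 3.06 to 68.2 CPM ± 2.69 with overlapping groups (-0.10, SE 0.043; SD, n = 3 each). Hsd17b7, the keto reductase of the same complex, was at 93.4, 89.3 and 94.6 CPM in controls and 69.2, 64.2 and 70.4 CPM in ETV4 KO, a log2 fold change of -0.44 (SE 0.042; adjusted p = 1.06e-10 by edgeR). The Nsdhl call was lost without control replicate 1 (edgeR adjusted p = 0.0686), control replicate 3 (0.196), ETV4 KO replicate 2 (0.0737) or ETV4 KO replicate 3 (0.185), and with DESeq2 (0.0820) or no low-count filter (0.0743).

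Of the last 3 enzymes 1 rose and 2 fell. Ebp (X chromosome, 8185329 to 8193512), the isomerase that shifts a double bond of the sterol ring, was at 14.1, 14.2 and 15.1 CPM in controls and 30.8, 30.0 and 29.4 CPM in ETV4 KO. It roughly doubled, with a log2 fold change of 1.06 (SE 0.061; adjusted p = 1.81e-15 by edgeR). The 21 other expressed genes in its 10 Mb bin also lay higher, with a median of 0.91. Sc5d, the desaturase after it, fell from 136, 130.2 and 128 CPM to 112, 105 and 111 CPM (-0.27, SE 0.037, edgeR adjusted p = 2.33e-07). Dhcr7, the last of the 3, had a mean of 71.5 CPM ± 2.83 in controls and 65.0 CPM ± 1.20 in ETV4 KO (SD over 3 libraries; log2 fold change -0.14, SE 0.042).

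**Figure D2:**
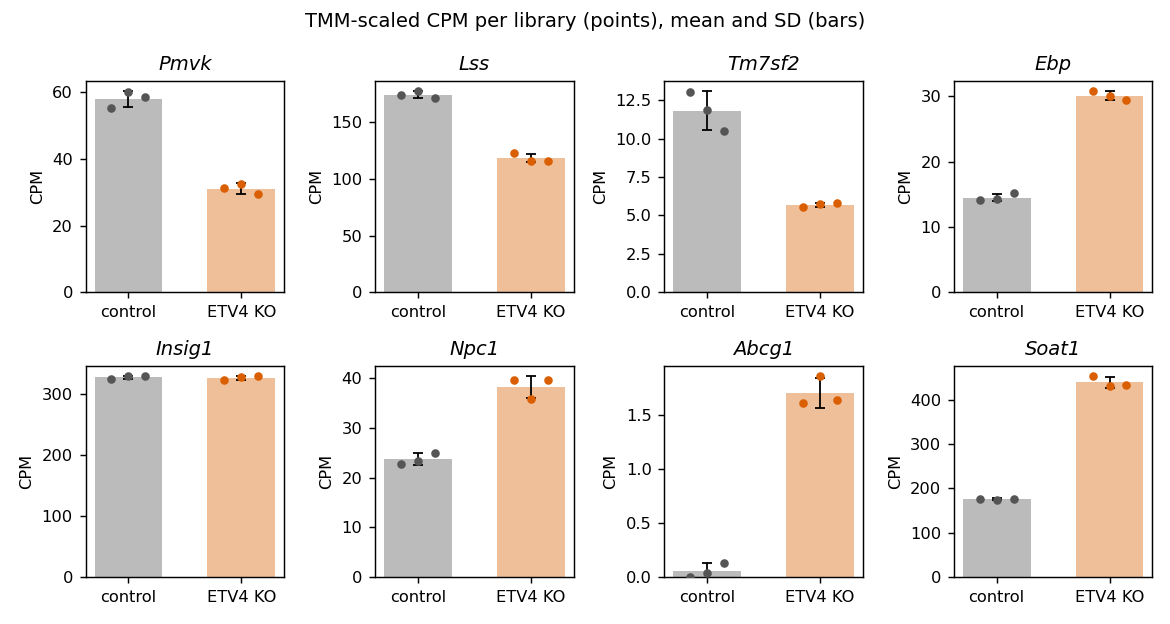
Bars are means, whiskers SDs and points the 3 libraries of each group, in TMM-scaled CPM on axes that start at 0, for the 7 members with a called log2 fold change of at least 0.5 in size and for Insig1. The ETV4 KO libraries lie below each control for Pmvk, Lss and Tm7sf2 and above each control for Ebp, Npc1, Abcg1 and Soat1, and the Insig1 groups overlap.

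The genes of sterol sensing moved by small amounts in both directions. Srebf2 itself was at 398, 389.6 and 402 CPM in controls and 356, 363 and 363 CPM in ETV4 KO, a log2 fold change of -0.14 (SE 0.031; adjusted p = 0.000251 by edgeR). Scap, its escort, rose from 129.9, 120.1 and 124 CPM to 146, 144 and 150.4 CPM, a log2 fold change of 0.24 (SE 0.037; adjusted p = 1.32e-06 by edgeR). Both genes had groups that did not overlap. Scap shares 985 exon bases with 5830462I19Rik on the opposite strand, and whether the counting used strand is not stated.

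The Insig genes, which encode the retention proteins, gave a level value and a small rise. Insig1 is a direct SREBP target and a common readout of the pathway. It was at 324, 328 and 328 CPM in controls and 323, 327 and 329 CPM in ETV4 KO, and its groups overlapped almost fully (log2 fold change 0.00, SE 0.031, edgeR adjusted p = 0.922). Insig2, which is controlled by other signals, was at 50.5, 54.8 and 56.1 CPM in controls and 57.4, 57.3 and 63.4 CPM in ETV4 KO (0.14, SE 0.049, edgeR adjusted p = 0.0115). Leaving out control replicate 1 (adjusted p = 0.0958) or ETV4 KO replicate 3 (0.119) ended this call, and so did upper-quartile factors (0.0613) and library size alone (0.101).

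Carriers that move sterol after uptake split into a fall and 2 rises. Stard4, a cytosolic sterol carrier and SREBP target, was at 106, 111 and 106 CPM in controls and 79.3, 80.0 and 83.1 CPM in ETV4 KO, a log2 fold change of -0.42 (SE 0.038; adjusted p = 5.52e-11 by edgeR). Npc1 (chromosome 18, 12189692 to 12236400), the membrane protein that exports cholesterol from lysosomes, was at 22.7, 23.4 and 25.0 CPM in controls and 39.5, 35.7 and 39.6 CPM in ETV4 KO. All ETV4 KO libraries stood above all controls, a log2 fold change of 0.69 (SE 0.057; adjusted p = 5.65e-12 by edgeR). Npc1 shares 511 exon bases with Rmc1 and 90 with Gm15956 on the opposite strand, and whether the counting used strand is not stated. Its soluble partner Npc2, which hands cholesterol to it, was at 425, 454 and 446 CPM in controls and 455, 477 and 461 CPM in ETV4 KO. The groups of Npc2 were barely apart (0.07, SE 0.032, edgeR adjusted p = 0.0484), and the call was lost without control replicate 1 (adjusted p = 0.256), control replicate 3 (0.0774), ETV4 KO replicate 2 (0.152) or ETV4 KO replicate 3 (0.0785), and with upper-quartile factors (0.346), library size alone (0.565) or a CPM filter (0.0721).

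Soat1 (chromosome 1, 156424525 to 156474331), which esterifies cholesterol for storage in lipid droplets, had the second highest log2 fold change of the tested members. It was at 176, 174 and 177 CPM in controls and 454, 430.4 and 433 CPM in ETV4 KO, with little spread in either group. The log2 fold change was 1.32 (SE 0.033, edgeR adjusted p = 1.65e-24) and ran from 1.30 to 1.34 when each library was left out in turn. Of all tested genes 6.49% had a log2 fold change as large in size. Soat2, the other cholesterol acyltransferase gene, had 2 counts over the control libraries and 7 over the ETV4 KO libraries and was not tested.

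Of the exporters, Abcg1 was found almost only in ETV4 KO and Abca1 in neither group. Abcg1 (chromosome 17, 31057675 to 31117988), which passes cholesterol to high-density lipoprotein, had 0, 1 and 3 counts in controls and 46, 46 and 39 in the ETV4 KO libraries. The ratio of the summed counts, scaled by library, was 30.9 with a 95% Clopper-Pearson interval of 11.8 to 115.0, which covers counting error only. Abcg1 passed the filter on low counts only through the ETV4 KO group, where it is high, so it had to differ and its call in the counts above is no free test. The fitted log2 fold change was 4.83 (SE 0.45); it was 6.10 without control replicate 3 and 4.32 without control replicate 1. Even in ETV4 KO the level stayed low, at 1.61, 1.86 and 1.63 CPM. Abca1, which loads cholesterol onto apolipoprotein A-I, had 0 counts in each of the 6 libraries, which allows up to 0.0411 CPM in controls and 0.0388 CPM in ETV4 KO (3 counts over a group).

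Nr1h2, which encodes LXR-beta, was slightly lower. It was at 55.0, 56.3 and 56.7 CPM in controls and at 50.2, 50.4 and 50.7 CPM in ETV4 KO, a log2 fold change of -0.15 (SE 0.043; adjusted p = 0.00274 by edgeR), with groups that did not overlap. The values of ETV4 KO were nearly the same in each library.

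Levels between genes were compared as CPM per kb of exon (the union of exons in GENCODE M21), which understates genes with long rarely used exons. Insig1 had the highest level in both groups, with 104.8 to 106.2 CPM per kb in controls and 104.3 to 106.3 CPM per kb in ETV4 KO. Npc2 followed with 81.2 and 85.4 CPM per kb, and then Cyp51 with 62.2 and 67.3 and Hmgcs1 with 61.3 and 58.2 (group means). Cyp51 and Hmgcs1 overlapped in the controls (60.7 to 63.9 and 59.6 to 62.9 CPM per kb) and not in ETV4 KO. At the low end, above the exporters, were Npc1 with 2.09 CPM per kb in controls and 3.38 in ETV4 KO and Tm7sf2 with 2.68 and 1.29, so that the order of the pair differed between the groups. Soat1 was 18th of the 30 genes in controls, at 17.9 CPM per kb, and 8th in ETV4 KO, at 44.9 CPM per kb.

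Many genes near each other on a chromosome moved together in this comparison, so each member was set beside the other expressed genes in its 10 Mb bin. The bin medians of the members ran from -0.21 to 0.91. Pmvk and Fdps lie in the same bin of chromosome 3, where the median was -0.21, and the bin of Lss had -0.20. The members that rose most differed in this respect, with a bin median of 0.04 for Soat1, 0.26 for Npc1, 0.30 for Abcg1 and 0.91 for Ebp.

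When the bin median was taken out, 5 members were called higher and 17 lower, against 30.5% and 34.2% of all tested genes, with a member median of -0.18. The p-values of this setting treat the bin median as known, without its error. Soat1 had 1.28, Npc1 0.43, Tm7sf2 -1.16, Pmvk -0.68, Lss -0.36 and Stard4 -0.57, all in the same direction as before. Ebp kept a log2 fold change of only 0.15 (edgeR adjusted p = 0.0350). The calls of Sqle (0.04, adjusted p = 0.271) and Scap (0.07, adjusted p = 0.111) were lost. Insig1 was called lower at -0.29 (adjusted p = 1.81e-09), and Acat2, whose bin had a median of 0.56, went from -0.13 to -0.70. Of the enzymes 1 was then higher and 13 lower. Mvk (-0.18), Fdft1 (-0.16), Idi1 (-0.03), Ggps1 (-0.07), Cyp51 (-0.07), Msmo1 (0.02) and Npc2 (-0.05) changed sign, of which Mvk and Fdft1 were called lower.

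**Figure D3:**
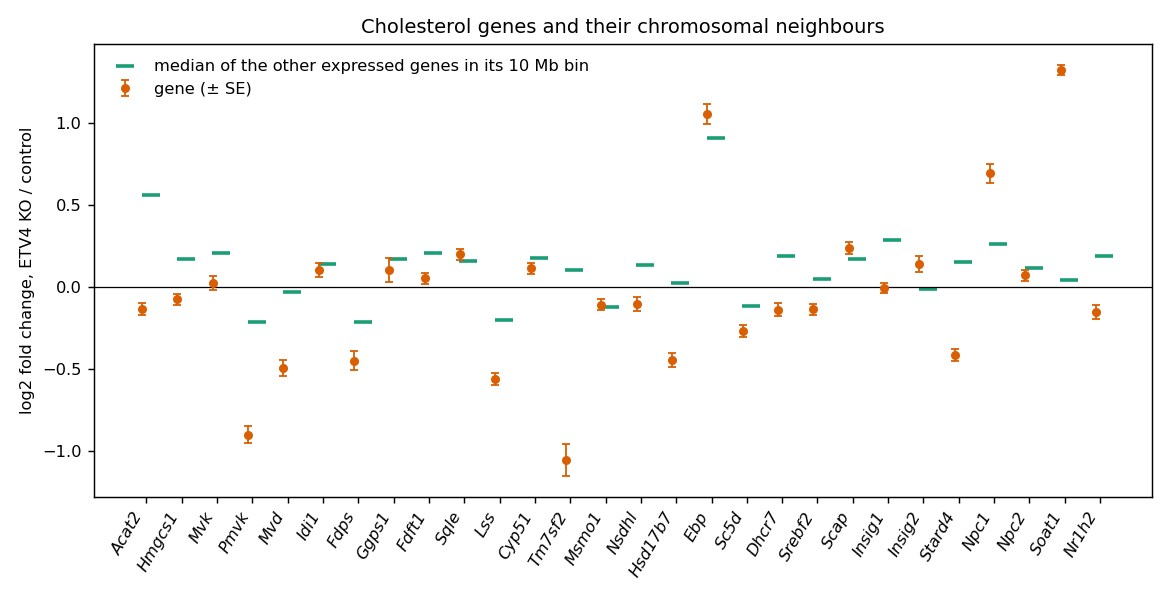
Orange points are the log2 fold changes of 28 members with their SE, and green dashes the median log2 fold change of the other expressed genes in the same 10 Mb bin; Abca1 was not tested and Abcg1 (4.83, bin median 0.30) is off the scale. Soat1 and Tm7sf2 stand far from their dashes, whereas Ebp (1.06) lies close to its dash (0.91).

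A wider list of 73 sterol and isoprenoid genes was read in the same fit, of which 66 were tested. Of these 27 were called higher (40.9%) and 20 lower (30.3%), with a median log2 fold change of 0.02. Over all tested genes 71.1% were called, 35.0% higher and 36.0% lower, and the list's share of 71.2% is near that. The balance depended on the scaling, for this list and for the whole table. Library size alone gave 19 higher and 25 lower, against 3670 and 4914 of all tested genes. Upper-quartile factors gave 22 and 24 (3824 and 4753), and taking out bin medians gave 26 and 26 (3684 and 4136). Among 8 tested genes of SREBP processing and sterol-regulated turnover 3 rose and 2 fell. Srebf1, the SREBP gene of fatty acid synthesis, fell from 232, 218 and 232 CPM to 131, 136 and 132 CPM (-0.77, SE 0.035), with a bin median of -0.36 on chromosome 11. Erlin1, which binds cholesterol at the endoplasmic reticulum and restrains SREBP, rose by 0.64, its partner Erlin2 had -0.28, and the sterol-dependent ubiquitin ligase gene Rnf139 had 0.49.

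Receptors and lysosomal genes of uptake rose in 4 and fell in 1 of 8 tested genes (50.0% and 12.5%, against 35.0% and 36.0% of all tested genes). With bin medians taken out the split was even, with 4 higher and 4 lower. Scarb2, a lysosomal membrane protein, rose from 50.1, 50.4 and 48.4 CPM to 88.0, 82.4 and 79.7 CPM (log2 fold change 0.75, SE 0.044). The lipoprotein receptor gene Lrp1 rose from 254, 233 and 221 CPM to 391, 380.0 and 384 CPM (0.71, SE 0.038), while Mylip, a ligase that degrades lipoprotein receptors and an LXR target, fell by 0.57 (SE 0.15). Neither Scarb2 nor Lrp1 had groups that overlapped. Vldlr, the very low-density lipoprotein receptor, had 7, 5 and 7 counts in controls and none in ETV4 KO. Against a floor of 3 counts per group this is at least 6.70-fold lower if the control counts are taken as exact. Counting error in the controls is not covered, and the gene was too low to be tested.

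Sterol transfer proteins rose in 6 and fell in 4 of 13 tested genes, and the 76.9% called is near the 71.1% of all tested genes. With bin medians taken out 4 were higher and 5 lower. The rises were small, with Osbpl5 at 0.43 and Osbpl8 at 0.23, oxysterol-binding proteins of membrane contact sites. Gramd1b, which carries plasma membrane cholesterol to the endoplasmic reticulum, fell by 2.41 (SE 0.29), from 37, 45 and 50 counts to 8, 9 and 9 counts. It passed the filter on low counts only through the controls, where it is high, so its call is no free test. Its relative Gramd1c fell by 0.86 (SE 0.14).

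Genes of LXR, export and oxysterols rose in 6 and fell in 3 of 10 tested, against 35.0% higher and 36.0% lower over all tested genes. The median log2 fold change of this list was 0.22, also with Cyp7b1 set at its bound, but with bin medians taken out it was 0.02, with 5 genes higher and 4 lower. Nr1h3, which encodes LXR-alpha, rose by 1.28 (SE 0.27) from 10, 19 and 12 counts to 43, 29 and 34 counts, and Sult2b1, a cholesterol sulfotransferase gene, rose by 0.62 (SE 0.077). Abca7, an ABC transporter gene related to Abca1, fell by 0.36. Cyp7b1, the oxysterol hydroxylase, had 49, 48 and 59 counts in controls and none in ETV4 KO. By the same floor, with the control counts again taken as exact, this is at least 55.0-fold lower. Cyp7b1 passed the filter only through the controls.

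Isoprenoid branches from farnesyl diphosphate rose in 6 and fell in 3 of 14 genes. The 64.3% called and the 42.9% higher are near the shares of all tested genes (71.1% and 35.0%). The 21.4% lower is below the 36.0% of all tested genes, and with bin medians taken out 5 were higher and 3 lower. Pdss1 and Pdss2, the subunits of the enzyme for the coenzyme Q side chain, rose together by 0.64 (SE 0.050) and 0.56 (SE 0.090), Dhdds, for dolichol, had -0.31 and the prenyltransferase subunit Fnta had -0.16. Genes that supply acetyl-CoA, NADPH and electrons fell in 7 and rose in 2 of 12 (58.3% and 16.7%, against 36.0% and 35.0% of all tested genes), and with bin medians taken out 7 were lower and 3 higher. The cytosolic isocitrate dehydrogenase Idh1 and the citrate carrier Slc25a1 had -0.61 (SE 0.036) and -0.60 (SE 0.044). The electron donors of sterol oxidation Por and Cyb5r3 rose by 0.60 (SE 0.035) and 0.53 (SE 0.033).

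**Figure D4:**
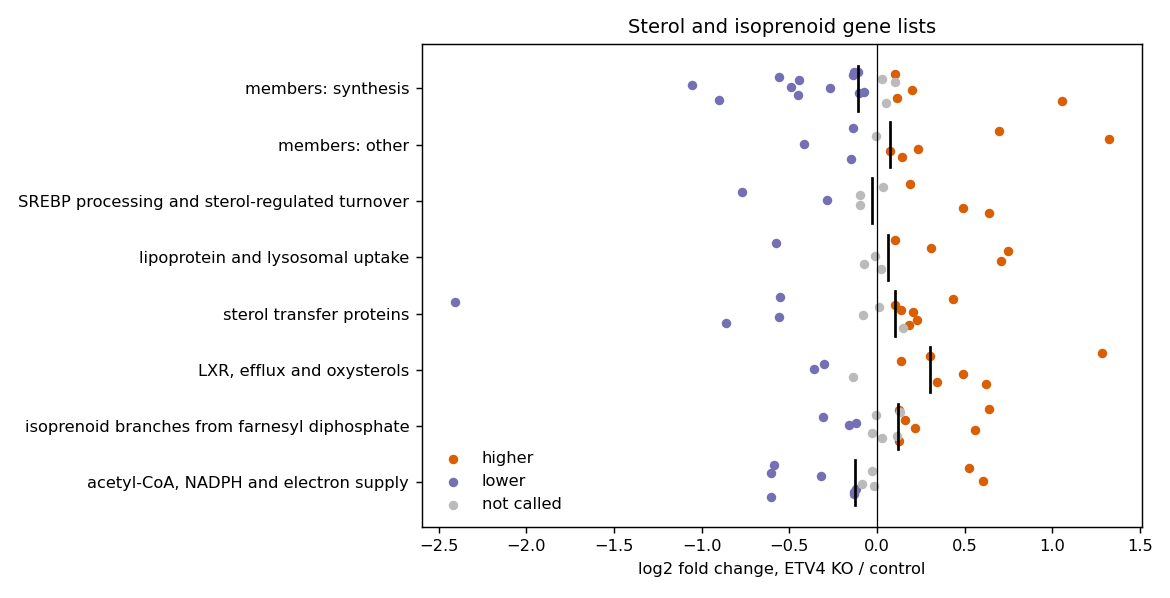
Each point is the log2 fold change of 1 tested gene (orange, called higher; violet, called lower; grey, not called), by list, with the median of the plotted genes as a black line; Abcg1 (4.83) and Cyp7b1 (no counts in ETV4 KO) are off the scale, and the vertical scatter has no meaning. The synthesis members lie mostly left of 0, and the list of LXR, efflux and oxysterol genes mostly right of it.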

How the data were processed

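The authors deposited raw read counts per gene symbol for 6 libraries of poly(A) RNA (stranded kit, per the labels' protocols). Per the submitters' processing notes, the tools were featureCounts, STAR 2.7.9a, FastQC 0.11.9 and R 4.1.1, and the builds mm10 and hg38, with no roles given. Annotation, strand setting and handling of multi-mapping reads: not given in the sources used here. Counts were tested with edgeR 4.0.16 in R 4.3.3 (filterByExpr with minimum count 10 and minimum total 15, TMM factors, a quasi-likelihood test with group as its single term), with Benjamini-Hochberg adjustment over 12076 genes and a threshold of 0.05. The SE is the size of the log2 fold change over the square root of F.

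The members and gene lists, and the setting with 10 Mb bin medians taken out (GENCODE M21, bins with at least 10 other genes of log2 CPM above 3, otherwise the chromosome), were chosen with earlier results of these data known. All 30 members are named; from the wider lists, up to 2 called genes per direction with the largest change and a mean of at least 10 counts per library. Soat2, Vldlr and Lbr were named outside this rule after their values were seen. On counts simulated for 12075 genes, 39 of 50 genes changed 1.2-fold, 45 of 50 changed 1.5-fold and 48 of 50 changed 2-fold were called, and 9 of 11708 unchanged genes. DESeq2 1.42.0, other factors, filters, a replicate block and each library left out were the alternatives. Some genes of the pathway are not reported here.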

Additional observations from a re-analysis of the deposited data

How the results depend on the processing

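With library size only 6 members were called higher and the member median was -0.13, where all tested genes had a median of -0.055. With the medians of 10 Mb bins removed 5 were called higher and the member median was -0.18, against -0.018 for all tested genes. The cause of these shifts was not tested. Under the other alternatives the counts of members called higher and lower stayed within 1.5 times 10 and 15. Leaving out 1 library at a time gave 7 to 9 members higher, 12 to 15 lower and 8152 to 8519 genes called over the table. Over the 29 tested members and Etv4, each under 14 alternatives, 373 values kept their direction and side of the threshold. With the sign kept 34 lost a call and 1 gained one, and 12 changed sign with or without a change of call. Among these 12, with bin medians removed, Mvk and Fdft1 gained a call and Idi1, Cyp51, Msmo1 and Npc2 lost theirs. The log2 fold change changed sign for Mvk with upper-quartile factors (-0.011), library size only (-0.025), bin medians removed (-0.18) and without control replicate 1 (-0.0092, against up to 0.071 without other libraries). That of Insig1, near 0, turned positive with no low-count filter (0.0055) and without ETV4 KO replicate 1, and ran from -0.0098 to 0.0036 over the libraries left out. With bin medians removed the sign also changed for Idi1 (-0.034), Ggps1 (-0.066), Fdft1 (-0.16), Cyp51 (-0.066), Msmo1 (0.018) and Npc2 (-0.046). Samples with the same number deviated from their group means with correlations of 0.071, 0.0705 and 0.0186 across genes. Those with different numbers had -0.0863 to 0.0199. ETV4 KO replicate 3 had nearly the same value with control replicate 1 (0.0199) as with its own number. The labels state no pairing, so the numbers were not taken as pairs, but these values cannot decide it. A replicate block gave 10 members higher and 15 lower, and 8882 genes called against 8582. Depth limits what can be said of Abca1, Soat2 and Vldlr.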
